A study of Mus musculus with 10 samples.

Results

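The regulators that switch red cells from embryonic and fetal to adult globins, with Bcl11a at their head, were followed through a mouse erythroleukemia cell line and 4 subclones that carry tagged BCL11A. The 9 genes, namely Bcl11a, Sox6, Klf1, Zbtb7a, Nr2c1, Nr2c2, Dnmt1, Kdm1a and Ehmt2, were taken by name, and each probe set whose platform annotation gave 1 of these symbols was a member. This gave 33 probe sets of 45101 on the array, and 9 genes of the 18193 that a probe set names alone. A probe set, a group of short oligonucleotides read as 1 value, was tested where its intensity exceeded the median of all values, 30.52, on at least 2 of the 10 arrays. Of the members, 27 passed this filter and 6 did not.

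All cells were MEL cells, virus-transformed mouse red cell precursors that grow in culture, and all carried BirA, a bacterial enzyme that attaches biotin to a short tag. The parental line carried BirA alone and was measured on 2 arrays. The 4 subclones, FBB1.5, FBB1.7, FBB1.10 and, last, FBB1.11, contained in addition BCL11A with a FLAG and biotin tag, and each was measured on 2 arrays. A subclone is 1 clone, so what it shows can belong to the tagged protein or to that clone, which cannot be told apart within a subclone. The promoter of the construct and the species of its BCL11A sequence are not given in the sources used here. The labels name no separate cultures behind both arrays of a line, so p-values reflect how far these arrays differ, possibly for technical reasons alone. Below, lists of 4 values run through the subclones in the order just given, and lists of 5 pairs start with the parental line.

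Globin genes lie in clusters and are used in turn during development, with embryonic genes first and adult genes last. BCL11A, SOX6 and ZBTB7A are repressors that keep early globin genes silent in adult red cells, and KLF1 is an activator that drives adult beta globin and the genes of other regulators, BCL11A among them. NR2C1 and NR2C2 (TR2 and TR4) are orphan nuclear receptors that bind embryonic and fetal globin promoters and recruit the enzymes DNMT1, a DNA methyltransferase, and KDM1A, a histone demethylase. EHMT2 (G9a) is a histone methyltransferase, and inhibiting it raises fetal globin in cultured red cell precursors.

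Array medians lay between 29.58 and 31.59, and Pearson's r across the tested probe sets was 0.981 to 0.989 within lines and 0.968 to 0.987 between them. The actin control gave a ratio of its 3' to its 5' end, which rises as RNA breaks down, that was 1.80 on parental 2, 1.47 on FBB1.5 1 and 1.06 to 1.22 on the other 8 arrays. Both FBB1.7 arrays had the lowest ratios, 1.07 and 1.06, against 1.22 and 1.80 on the parental arrays, so the ratio also differs between these 2 lines. Of 6 red cell markers on the array, 5 (Gata1, Epor, Alas2, Tfrc and Ermap) lay above the table median on all arrays, and Slc4a1, the anion exchanger of mature red cells, exceeded it on no array. Summed mast cell markers (Cpa3, Mcpt2, Tpsb2 and 5 others) ranged from 5403 to 6538 on the parental arrays and from 826 to 6279 on the tagged ones, with a mean of 885 in FBB1.7, and 3 of these 8 markers (Fcer1a, Ms4a2 and Tpsab1) exceeded the table median on no array.

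Each line was set against the parental line in limma, in a fit of 5 line means on log2(intensity + 16), with Benjamini-Hochberg adjustment over 25061 probe sets and a threshold of 0.05. Of the 27 members, 1 was called in FBB1.5 (3.7% of members, against 2.02% of all tested probe sets), 5 in FBB1.7 (18.5%, against 10.1%), 1 in FBB1.10 (3.7%, against 1.8%) and 1 in FBB1.11 (3.7%, against 0.188%). The single calls in FBB1.5, FBB1.10 and FBB1.11 were the same Bcl11a probe set. The 5 calls in FBB1.7 were 3 Dnmt1 probe sets, which were higher (4.55% of all tested were called higher), and 1 probe set each of Bcl11a and Ehmt2, which were lower (5.5% called lower). The calls depend on a variance prior that follows intensity: without that trend 0, 0, 0 and 1 of the members passed, and 22, 1187, 1 and 8 of all tested probe sets. No probe set of Sox6, Klf1, Zbtb7a, Nr2c1, Nr2c2 or Kdm1a passed in any subclone against parental. The median size of the log2 difference over the members was 0.12, 0.34, 0.19 and 0.17 in the 4 subclones, beside 0.14, 0.18, 0.14 and 0.13 over all tested probe sets. The parental arrays serve all 4 comparisons, so these are not independent of each other. The arrays of the subclone and of the parental line did not overlap for 11, 19, 17 and 10 of the 27 members, where 40.6%, 51.2%, 44.5% and 41.2% of all tested probe sets did not overlap. In the same order, 5, 15, 5 and 3 of the 27 had an unadjusted p under 0.05, where 14.8%, 24.2%, 15.4% and 11.8% of all tested probe sets did.

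**Figure D1:**
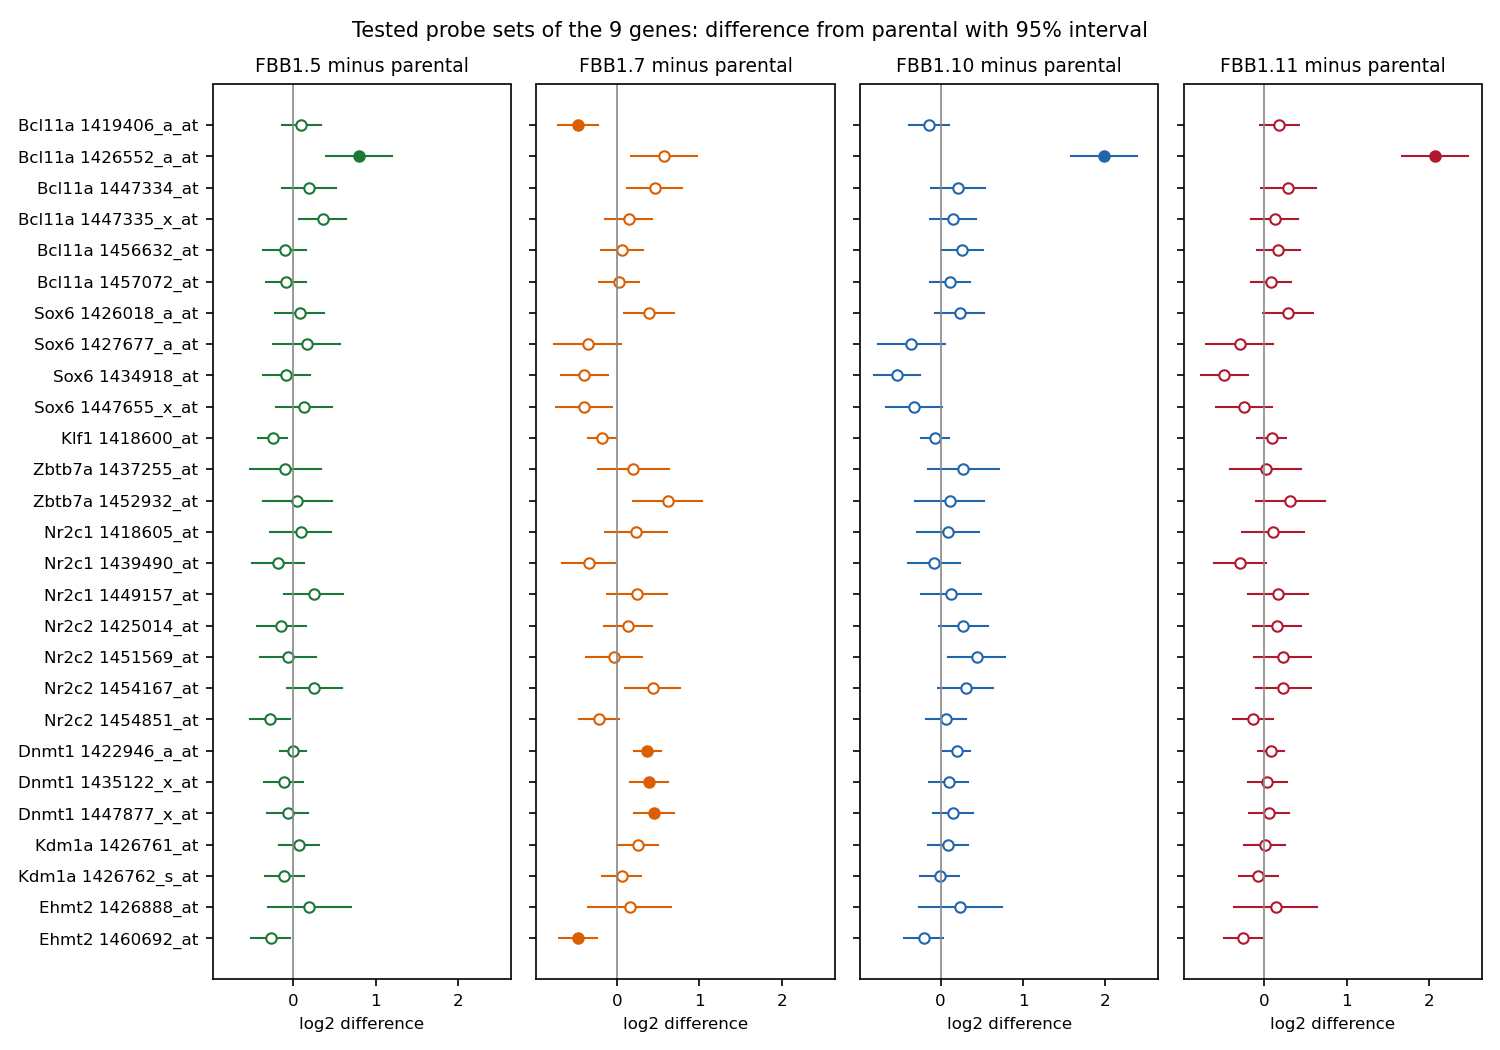
Log2 difference from the parental line, on the log2(intensity + 16) scale, for the 27 tested probe sets in each of the 4 subclones, with the 95% interval of the fit as bars. Filled points passed limma's adjusted threshold, namely 5 in FBB1.7 and 1 in each of the other subclones, and open points did not.

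Bcl11a encodes the zinc finger repressor whose tagged form the subclones carry. It lies on chromosome 11 and was read by 7 probe sets, of which 6 were tested. Only 1419406_a_at is annotated with a RefSeq transcript of the gene as its source sequence, and 1447334_at and 1447335_x_at share a source. Whether any of the 7 reads the tagged construct was not tested, so their levels are the sum of whatever Bcl11a transcripts each can detect. In bulk RNA such as this, fewer cells with a transcript and less of it per cell cannot be told apart.

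The probe set 1426552_a_at differed most between the lines. Its intensity was 39.7 and 35.9 on the parental arrays, 62.1 and 95.8 in FBB1.5, then 62.4 and 65.0 in FBB1.7, then 232.6 and 164.5 in FBB1.10, and 245.4 and 180.7 in FBB1.11. All 8 tagged arrays lay above both parental arrays, and the 4 arrays of FBB1.10 and FBB1.11 lay above the 4 of FBB1.5 and FBB1.7. On the log2 scale FBB1.10 stood 1.98 ± 0.19 (SE) above parental (limma adjusted p = 0.00017) and FBB1.11 2.08 ± 0.19 (adjusted p = 7.1e-05); the geometric mean intensities stood 5.19-fold and 5.58-fold above that of parental cells. FBB1.5 stood 0.80 ± 0.19 above it (adjusted p = 0.041), and FBB1.7, at 0.57 ± 0.19, missed the threshold (adjusted p = 0.071). Each array was then left out in turn, and every later "without" means 1 array left out. FBB1.10 and FBB1.11 passed in 10 of 10 refits each, and without the intensity trend FBB1.11 passed (adjusted p = 0.012) and FBB1.10 did not (adjusted p = 0.053). FBB1.5 failed without either parental array, FBB1.5 2 or either FBB1.7 array (p up to 0.32 after adjustment), and also with the actin ratio as covariate (adjusted p = 0.078), with no filter or with a pseudocount of 64, while the value of FBB1.7 came to pass without either FBB1.5 array (lowest adjusted p = 0.045).

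The lines ordered as FBB1.11 (213 ± 45.8, SD, n = 2), FBB1.10 (198.6 ± 48.2), FBB1.5 (79.0 ± 23.9), FBB1.7 (63.7 ± 1.88) and parental (37.8 ± 2.69). Among these neighbours FBB1.10 over FBB1.5 was the step that passed, at 1.18 on the log2 scale (limma adjusted p = 0.0028; 3.92% of all tested probe sets passed there), and without FBB1.10 1 it did not (adjusted p = 0.064). FBB1.11 exceeded FBB1.5 by 1.28 (adjusted p = 0.0028; background 1.32%) and FBB1.7 by 1.51 (adjusted p = 0.00084; background 3.29%), and FBB1.10 exceeded FBB1.7 by 1.41 (adjusted p = 0.012; background 0.124%). The difference of FBB1.11 from FBB1.7 passed in 10 of 10 refits with an array left out. That from FBB1.5 failed without FBB1.5 1 or FBB1.11 1 (p up to 0.081 after adjustment), and that of FBB1.10 from FBB1.7 without FBB1.7 1, FBB1.7 2 or FBB1.10 1 (p up to 0.11 after adjustment).

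The probe set 1419406_a_at moved the other way in 1 subclone. Its intensity was 309.5 and 350.0 on the parental arrays, 352.7 and 354.9 in FBB1.5, then 229.1 and 236.2 in FBB1.7, then 279.3 and 317.4 in FBB1.10, and 350.1 and 404.0 in FBB1.11. The FBB1.7 arrays were the lowest of the 10. The log2 difference of FBB1.7 from parental was -0.47 ± 0.11 (limma adjusted p = 0.015), and it failed without parental 2 or either FBB1.7 array (p up to 0.11 after adjustment). It also failed with the actin ratio as covariate (-0.36, adjusted p = 0.23) and without parental 2 and FBB1.5 1, the arrays of highest actin ratio (-0.39, adjusted p = 0.083). The other 3 subclones differed from parental by 0.10, -0.14 and 0.18 in FBB1.5, FBB1.10 and FBB1.11, and none of these passed (lowest adjusted p = 0.55). FBB1.7 also differed from FBB1.5 by -0.57 (limma adjusted p = 0.0046; background 9.44%), and FBB1.11 from FBB1.7 by 0.66 (adjusted p = 0.0048). Both failed without FBB1.7 1, and that against FBB1.11 also without FBB1.11 2 (p up to 0.054 and 0.089 after adjustment).

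The remaining Bcl11a probe sets passed in no subclone. Values of 1456632_at were 246.9 and 300.0 on the parental arrays, 233.7 and 271.4 in FBB1.5, then 282.5 and 286.4 in FBB1.7, then 346.8 and 312.8 in FBB1.10, and 294.8 and 324.1 in FBB1.11. Those of 1457072_at were 306.6 and 347.5, 282.6 and 331.8, 333.9 and 334.0, 367.2 and 341.7, and 326.6 and 371.3, in the same order of lines. In FBB1.10, where 1426552_a_at differed by 1.98, these differed by 0.26 (95% interval 0.0047 to 0.52, adjusted p = 0.31) and 0.11 (-0.13 to 0.36, adjusted p = 0.70). Values of 1447334_at were 63.0 and 73.4, 66.8 and 95.4, 109.7 and 89.9, 85.5 and 77.1, and 86.1 and 88.3. In FBB1.7 it stood 0.46 above parental (adjusted p = 0.077) and passed without either FBB1.5 array (lowest adjusted p = 0.045). Values of 1447335_x_at, whose suffix marks probes that can also read other transcripts, were 107.9 and 91.9, 131.1 and 132.8, 106.2 and 117.2, 117.4 and 108.0, and 122.7 and 98.97. The untested 1453814_at stayed between 9.32 and 25.4 on all arrays, below the table median.

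**Figure D2:**
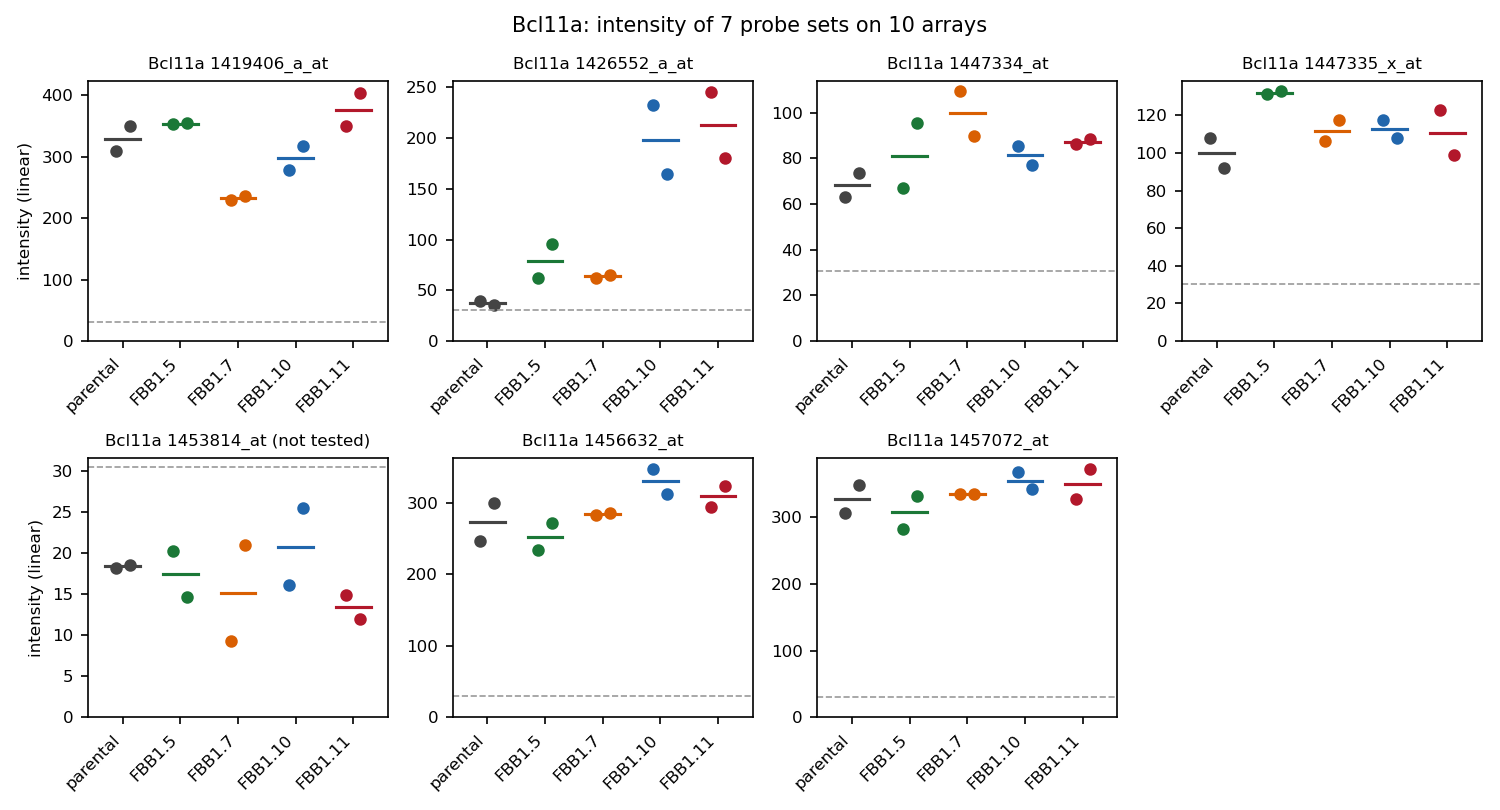
Intensity (linear axis from 0) of the 7 Bcl11a probe sets on 10 arrays, with points for arrays, short lines for line means and a dashed line at the table median of 30.52. The values of 1426552_a_at reach 245.4 in FBB1.11 from 35.9 to 39.7 in parental cells, whereas 1419406_a_at is lowest in FBB1.7 at 229.1 and 236.2, and each panel has its own scale.

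How far the Bcl11a probe sets disagree was tested directly by setting the log2 difference of each against the mean of the gene's other tested probe sets, with limma's diffSplice and the probe sets in the place of exons. The test ran over 13951 probe sets of 5260 genes. It treats the probe sets of an array as independent readings, which they are not. In FBB1.10 the difference of 1426552_a_at exceeded that of the others by 1.86 on the log2 scale (adjusted p = 7.1e-09; 0.387% of all probe sets were called) and in FBB1.11 by 1.90 (adjusted p = 3.7e-09; 0.0645% called). The excess in FBB1.5 was 0.71 (adjusted p = 0.12; 0.0287% called), and that in FBB1.7 was 0.53 (adjusted p = 0.070; 3.51% called). In FBB1.7 the probe set called was 1419406_a_at, at -0.73 against the others (adjusted p = 0.013). That call failed without parental 2 or either FBB1.7 array (p up to 0.17 after adjustment), with no filter (adjusted p = 0.064) and with the actin ratio as covariate (adjusted p = 0.52). The calls of 1426552_a_at in FBB1.10 and FBB1.11 were made in 10 of 10 refits with an array left out and in the 12 other settings tried. Among those settings, dropping the intensity trend and fitting the variance prior robustly do not enter diffSplice, so these calls could not change there.

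The mean of the others includes 1426552_a_at for every other probe set, so a high value of it lowers theirs in this test. With that in it, 1419406_a_at stood at -0.68 in FBB1.10 (adjusted p = 0.057), -0.37 in FBB1.11 (adjusted p = 0.52) and -0.13 in FBB1.5 (adjusted p = 0.93), and without parental 1 or either FBB1.5 array the value in FBB1.10 passed (lowest adjusted p = 0.036). Over the gene as a whole, an F test of unequal probe sets gave an adjusted p in diffSplice of 0.21, 0.019, 5.0e-07 and 3.7e-07 in the 4 subclones, where 0.019%, 6.5%, 0.646% and 0.133% of 5260 genes passed. Across the 10 arrays, the 15 pairs of the 6 tested probe sets had Pearson's r from -0.51 to 0.94 on the log2 scale, with a median of 0.23 and 6 of them below 0. The pair 1456632_at and 1457072_at stood at 0.94, and 1426552_a_at stood at 0.66 with 1456632_at, 0.49 with 1457072_at and 0.23 with 1419406_a_at. These are descriptions over arrays that share lines.

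**Figure D3:**
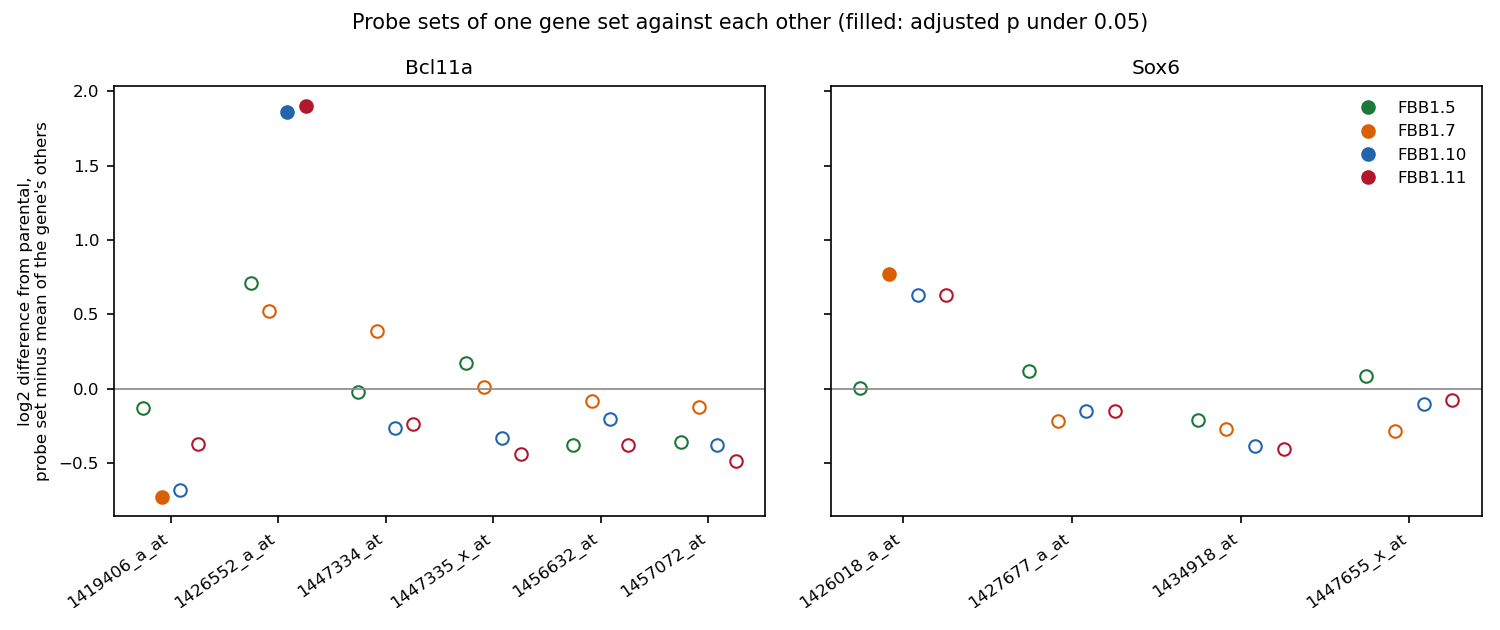
Log2 difference of each tested Bcl11a probe set (left) and Sox6 probe set (right) from parental minus the mean difference of the gene's other tested probe sets, in the 4 subclones. Filled points passed the adjusted threshold. For Bcl11a these were 1426552_a_at at 1.86 in FBB1.10 and 1.90 in FBB1.11, and 1419406_a_at at -0.73 in FBB1.7, and for Sox6 1426018_a_at at 0.77 in FBB1.7.

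The promoters of the 3 genes with called probe sets are shown because their levels carry the results, and KLF1, the activator among the 9, is known to bind boxes of this kind. They are the 250 bases before a RefSeq start on build GRCm38.p6, written 5′ to 3′ on the strand of the gene, with matches to CCNCNCCC, the letters of a KLF-type box, in capitals on either strand. Overlapping matches run together, so a block can hold more than 1. The Bcl11a window is chr11:24080445-24080694 (plus strand) and holds 8 matches, the Dnmt1 window chr9:20959889-20960138 (minus strand) holds 0, and the Ehmt2 window chr17:34898224-34898473 (plus strand) holds 3. Where a gene had several RefSeq starts, the outermost is shown, and which start these cells use was not tested. Other RefSeq starts of these genes differ, with 1 and 4 matches at 2 further starts of Dnmt1 and 8 at another start of Ehmt2. Those of Dnmt1 lie 6909 and 7265 bases inside the outer edge of the gene.
Bcl11a: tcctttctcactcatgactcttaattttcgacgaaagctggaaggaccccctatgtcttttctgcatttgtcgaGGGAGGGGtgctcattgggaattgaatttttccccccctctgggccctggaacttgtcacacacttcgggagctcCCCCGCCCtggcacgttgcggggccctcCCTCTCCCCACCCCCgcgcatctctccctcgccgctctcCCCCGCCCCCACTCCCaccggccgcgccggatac
Dnmt1: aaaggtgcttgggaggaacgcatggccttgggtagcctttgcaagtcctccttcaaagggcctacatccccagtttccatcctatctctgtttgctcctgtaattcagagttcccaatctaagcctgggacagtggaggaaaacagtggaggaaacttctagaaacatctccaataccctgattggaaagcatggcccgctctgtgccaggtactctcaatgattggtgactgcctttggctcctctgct
Ehmt2: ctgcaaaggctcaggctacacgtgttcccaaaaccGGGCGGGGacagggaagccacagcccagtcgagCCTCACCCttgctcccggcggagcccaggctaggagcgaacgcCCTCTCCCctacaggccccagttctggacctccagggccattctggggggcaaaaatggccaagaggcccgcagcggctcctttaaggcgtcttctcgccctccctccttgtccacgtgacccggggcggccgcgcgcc
GC content was 62.0% in the Bcl11a window, 50.4% in that of Dnmt1 and 67.6% in that of Ehmt2, beside a median of 52.4% over all starts. CCNCNCCC is common, at 45.9% of 32851 starts of the same length, and 9 of the 17 starts of the 9 genes held it. GATAA, the core bound by GATA factors, was in 4 of 17 (22.6% of all starts; Klf1, Sox6 and Zbtb7a), AGGTCA, the core letters of nuclear receptor sites, in 3 of 17 (14%; Kdm1a and Sox6), AACAAT, bound by SOX factors, in 1 of 17 (9.42%; Sox6), and TGACCA, the letters recognised by the BCL11A zinc fingers, in 0 of 17 (11.4%). Each motif was searched on both strands, and TGACCA differs by its last letter from AGGTCA read on the other strand. The RefSeq start of Bcl11a used here lies 4131 bases inside the outer edge of the annotated gene, so another start of the gene is not covered. A match is a description of letters, and arrays give no binding.

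Sox6 encodes the SOX family partner of BCL11A in silencing embryonic and fetal globins. It lies on chromosome 7 and all 4 of its probe sets were tested, with none called against parental. Intensities of 1434918_at were 83.2 and 84.8 on the parental arrays, 82.8 and 73.9 in FBB1.5, then 60.4 and 59.5 in FBB1.7, then 57.0 and 49.9 in FBB1.10, and 52.7 and 58.4 in FBB1.11. All 8 tagged arrays lay below both parental arrays, with FBB1.5 nearest. The log2 difference from parental was -0.09 ± 0.13 in FBB1.5, -0.40 in FBB1.7 (limma adjusted p = 0.074), -0.53 in FBB1.10 (adjusted p = 0.058) and -0.49 in FBB1.11 (adjusted p = 0.16). The values of FBB1.7 and FBB1.10 passed in 0 of 10 refits each with an array left out. With the filter that asks for all 10 arrays above the table median, FBB1.10 passed (adjusted p = 0.043).

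The probe set 1447655_x_at had 121.7 and 114.0 in parental cells, 123.9 and 137.8 in FBB1.5, then 100.1 and 72.1 in FBB1.7, then 92.0 and 90.6 in FBB1.10, and 81.2 and 115.8 in FBB1.11. FBB1.7 differed from FBB1.5 by -0.54 (limma adjusted p = 0.048), and this failed in 5 of 10 refits, without FBB1.5 1, FBB1.5 2, FBB1.7 2 or either FBB1.10 array (p up to 0.34 after adjustment), and in 7 of 11 other settings, among them the replicate block, quantile normalization and no filter (p up to 0.12 after adjustment). Values of 1427677_a_at were 67.6 and 50.1, 77.4 and 57.9, 43.4 and 40.8, 44.3 and 40.2, and 34.6 and 56.5 in the same order of lines. Values of 1426018_a_at ran the other way, at 46.9 and 51.5, 47.4 and 58.5, 66.1 and 72.5, 63.4 and 57.7, and 64.2 and 63.0. In FBB1.7 its difference from parental exceeded that of the other Sox6 probe sets by 0.77 on the log2 scale (diffSplice adjusted p = 0.017). The F test over the gene gave an adjusted p = 0.047 there. The probe set's value failed without either parental array or either FBB1.7 array (p up to 0.18 after adjustment) and with the actin ratio as covariate (adjusted p = 0.34). In FBB1.10 and FBB1.11 it stood at 0.63 each, which did not pass (adjusted p = 0.13 and 0.34), and in FBB1.5 at 0.0072.

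Klf1 encodes the red cell zinc finger activator of adult beta globin and is read by 1 probe set, 1418600_at, annotated with a RefSeq transcript. Its intensity was 1117 and 1199 in parental cells, 1010 and 931 in FBB1.5, then 1024 and 1016 in FBB1.7, then 1062 and 1148 in FBB1.10, and 1269.5 and 1198 in FBB1.11. FBB1.5 and FBB1.7 lay below both parental arrays, and FBB1.10 and FBB1.11 overlapped with them. Log2 differences from parental were -0.25, -0.18, -0.07 and 0.09, each ± 0.08, and the lowest limma adjusted p was 0.14. The widest gap between lines was FBB1.11 over FBB1.5, at 0.34 (adjusted p = 0.054). The moderated F test between the 4 subclones gave an adjusted p of 0.055, and it passed without either parental array (lowest adjusted p = 0.033).

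Zbtb7a encodes LRF, a repressor of fetal globin that acts beside BCL11A. It lies on chromosome 10 and was read dimly by 3 probe sets. Values of 1452932_at were 41.0 and 30.9 in parental cells, 38.5 and 36.5 in FBB1.5, then 77.7 and 51.3 in FBB1.7, then 38.0 and 41.8 in FBB1.10, and 39.3 and 59.1 in FBB1.11. FBB1.7 lay above both parental arrays, by 0.62 ± 0.20 on the log2 scale (limma adjusted p = 0.060), and passed without FBB1.7 2 (adjusted p = 0.047). Values of 1437255_at were 38.6 and 40.6, 29.2 and 43.7, 49.2 and 46.5, 55.8 and 46.9, and 29.8 and 53.2, and its arrays of FBB1.5 and FBB1.11 straddled the parental ones. The probe set 1450093_s_at, annotated with a RefSeq transcript, lay between 2.34 and 13.3 on all arrays and was not tested.

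**Figure D4:**
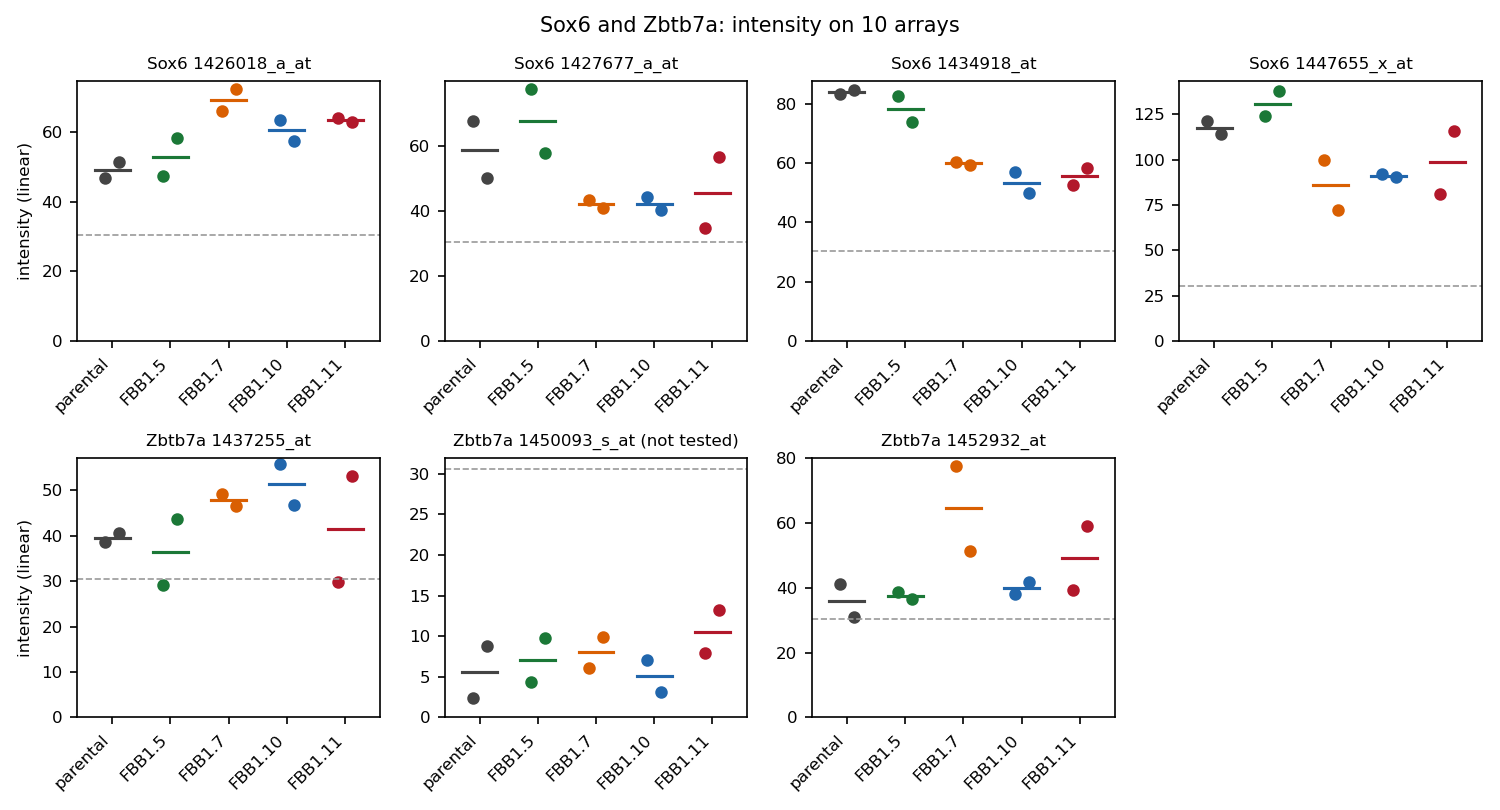
Intensity (linear axis from 0) of the 4 Sox6 and 3 Zbtb7a probe sets on 10 arrays, drawn as points with line means and the table median of 30.52 dashed. For Sox6 1434918_at the FBB1.7, FBB1.10 and FBB1.11 arrays lie between 49.9 and 60.4, below the parental 83.2 and 84.8, while 1426018_a_at runs the other way and Zbtb7a 1450093_s_at stays under the dashed line.

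Nr2c1 and Nr2c2 encode TR2 and TR4, the receptors that form the core of a complex on embryonic globin promoters. Of 5 Nr2c1 probe sets 3 were tested and of 6 Nr2c2 probe sets 4 were tested, and none of the 7 passed against parental or between subclones. For Nr2c1, 1418605_at had 70.4 and 57.3 in parental cells, 84.3 and 55.4 in FBB1.5, then 87.9 and 67.8 in FBB1.7, then 72.2 and 65.5 in FBB1.10, and 77.0 and 62.9 in FBB1.11, so the arrays of every line overlapped with the parental ones. Values of 1439490_at were 74.9 and 78.9, 63.5 and 67.5, 66.3 and 49.0, 72.6 and 71.8, and 53.6 and 66.8, with every tagged array below both parental arrays. Its log2 difference was largest in FBB1.7, at -0.34 (limma adjusted p = 0.17). Values of 1449157_at were 43.9 and 35.9, 47.7 and 52.6, 55.1 and 45.03, 53.3 and 37.3, and 47.1 and 46.3. The untested 1446194_at ranged from 19.1 to 32.8 and 1458338_x_at from 7.47 to 21.2.

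For Nr2c2, 1454851_at had 305.3 and 361.7 in parental cells, 283.5 and 258.4 in FBB1.5, then 280.6 and 284.8 in FBB1.7, then 373.9 and 322.8 in FBB1.10, and 302.3 and 301.9 in FBB1.11. The subclones differed from parental by -0.28, -0.22, 0.06 and -0.13 on the log2 scale (lowest limma adjusted p = 0.25). Values of 1451569_at were 172.2 and 110.7, 120.0 and 144.4, 131.0 and 138.4, 209.1 and 178.4, and 163.2 and 166.5, with FBB1.10 alone above both parental arrays, by 0.44 (adjusted p = 0.20). Values of 1425014_at were 120.0 and 102.4, 88.3 and 110.6, 126.9 and 119.0, 146.7 and 129.4, and 136.1 and 116.2. Values of 1454167_at were 40.4 and 39.5, 50.3 and 51.0, 55.8 and 63.8, 45.8 and 61.5, and 46.0 and 53.7, where every tagged array lay above both parental arrays and FBB1.7 by 0.44 (adjusted p = 0.094). The other probe sets, 1439696_at and 1449605_at, stayed between 2.80 and 12.1 and were not tested.

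Dnmt1, which encodes the enzyme that copies DNA methylation at replication and which methylates silenced globin promoters, rose in FBB1.7. It lies on chromosome 9 and was read by 3 probe sets, all of which passed. The suffix of 1435122_x_at and 1447877_x_at marks probes that can also read other transcripts, and neither has an annotated source sequence. Values of 1422946_a_at were 1792 and 1995 in parental cells, 1777 and 2009 in FBB1.5, then 2486 and 2406 in FBB1.7, then 2100 and 2233 in FBB1.10, and 2022 and 1986 in FBB1.11. Values of 1435122_x_at were 630.7 and 795.2, 607.6 and 699.7, 956.5 and 911.2, 752.8 and 764.7, and 689.3 and 768.3, and those of 1447877_x_at were 253.7 and 312.5, 282.0 and 254.2, 391.0 and 392.2, 314.0 and 315.4, and 281.9 and 306.8. In all 3 the FBB1.7 arrays were the highest of the 10. The log2 difference from parental was 0.37 ± 0.08, 0.39 ± 0.11 and 0.45 ± 0.11 (limma adjusted p = 0.0063, 0.036 and 0.021), and from FBB1.5 it was 0.37, 0.51 and 0.52 (adjusted p = 0.0060, 0.0087 and 0.0092).

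Against FBB1.10 and FBB1.11, the excess of FBB1.7 did not pass for any Dnmt1 probe set (lowest limma adjusted p = 0.052). The call of 1422946_a_at against parental failed without FBB1.7 1 (adjusted p = 0.071), and those of 1435122_x_at and 1447877_x_at without parental 1 or either FBB1.7 array (p up to 0.22 and 0.13 after adjustment). With parental 2 left out, the array with the highest actin ratio, all 3 passed (adjusted p = 0.0042, 0.0069 and 0.0090). The call of 1435122_x_at also failed with quantile normalization or median centring of the arrays, as well as with the actin ratio as covariate. The differences of FBB1.7 from FBB1.5 failed without FBB1.5 1 or FBB1.7 1 for 1422946_a_at and 1435122_x_at and without FBB1.5 2 or either FBB1.7 array for 1447877_x_at (p up to 0.10 after adjustment). In diffSplice the 3 probe sets differed from the mean of the others by -0.05, -0.02 and 0.07 in FBB1.7, and no such difference passed (gene F test adjusted p = 0.95).

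Kdm1a encodes LSD1, a demethylase of histone H3 in corepressor complexes, and lies on chromosome 4. Values of 1426761_at were 111.5 and 122.5 in parental cells, 125.2 and 121.7 in FBB1.5, then 148.3 and 136.0 in FBB1.7, then 127.2 and 124.0 in FBB1.10, and 114.2 and 120.9 in FBB1.11. FBB1.7 was highest, by 0.25 ± 0.12 on the log2 scale against parental (95% interval 0.0032 to 0.50), and did not pass (limma adjusted p = 0.20). Values of 1426762_s_at were 318.3 and 358.2, 337.2 and 287.3, 361.0 and 343.3, 334.4 and 336.2, and 304.4 and 337.3, and the arrays of every subclone overlapped with the parental ones.

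Ehmt2 encodes the methyltransferase G9a of histone H3 and lies on chromosome 17. Values of 1460692_at were 631.9 and 655.7 in parental cells, 572.7 and 488.6 in FBB1.5, then 504.6 and 420.7 in FBB1.7, then 566.8 and 545.2 in FBB1.10, and 562.7 and 510.2 in FBB1.11. Every tagged array lay below both parental arrays, and FBB1.7 was lowest. In FBB1.7 it fell by 0.47 on the log2 scale (SE 0.11, limma adjusted p = 0.013), and stood at -0.28, -0.21 and -0.26 in FBB1.5, FBB1.10 and FBB1.11 (lowest adjusted p = 0.24). The call failed without parental 2 or FBB1.7 2 (p up to 0.16 after adjustment) and with the actin ratio as covariate (adjusted p = 0.22). The parental arrays disagreed on the other probe set, 1426888_at, at 234.8 and 109.2, and every subclone array lay between them, from 156.5 to 219.0. Its difference from parental in FBB1.7 was 0.16 ± 0.24, and the gap between both Ehmt2 probe sets did not pass there (diffSplice adjusted p = 0.33).

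**Figure D5:**
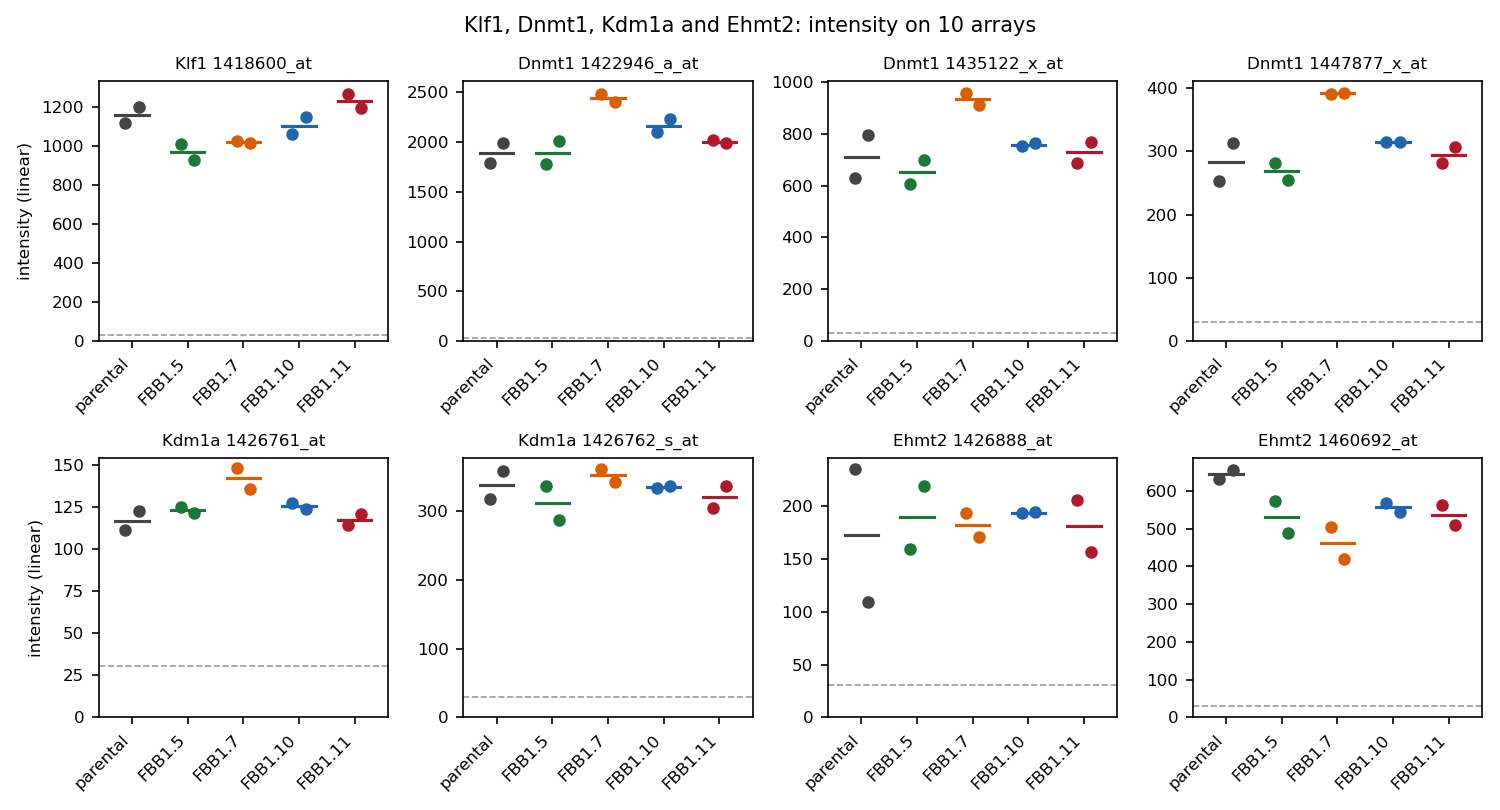
Intensity (linear axis from 0) of the Klf1, Dnmt1, Kdm1a and Ehmt2 probe sets on 10 arrays, with points for arrays and short lines for line means. The FBB1.7 arrays are the highest for all 3 Dnmt1 probe sets, at 2486 and 2406 for 1422946_a_at, and Ehmt2 1460692_at is below the parental 631.9 and 655.7 on all tagged arrays.

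Between the 4 subclones, the moderated F test called 5 of the 27 members, where 7.24% of all tested probe sets were called. These were Bcl11a 1426552_a_at (limma adjusted p = 0.00024), Bcl11a 1419406_a_at (adjusted p = 0.0061) and the Dnmt1 probe sets 1422946_a_at, 1447877_x_at and 1435122_x_at (adjusted p = 0.025, 0.041 and 0.042). The first kept its call in 10 of 10 refits with an array left out (p up to 0.0022 after adjustment). That of 1419406_a_at failed without FBB1.7 1 (adjusted p = 0.067). Those of Dnmt1 failed in 5, 8 and 7 of 10 (p up to 0.18, 0.22 and 0.27 after adjustment), each time among the arrays of the subclones. When the lines were put in order for each of the 27 members, 1 of 108 steps between neighbours passed, that of Bcl11a 1426552_a_at from FBB1.5 to FBB1.10, and no member passed between FBB1.10 and FBB1.11 (background 0.267%). The median range of line means was 0.39 on the log2 scale over the members and 0.33 over all tested probe sets, and the median SD within lines was 0.13 and 0.14. The calls in FBB1.7, FBB1.10 and FBB1.11 stood beside lower summed mast cell markers (885, 2329 and 1709, against 5970 in parental cells and 5606 in FBB1.5), and the part of this in them was not tested.

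Taking all tagged arrays against the parental line, with the line as a random block (consensus correlation 0.211), limma called 0 of the 27 members and 0 of 25061 probe sets (0%). At an unadjusted p under 0.05 there were 4 members and 2190 probe sets (8.74%). The 4 were Bcl11a 1426552_a_at at 1.36 on the log2 scale (adjusted p = 0.43), Sox6 1434918_at at -0.37 (adjusted p = 0.50), Ehmt2 1460692_at at -0.30 (adjusted p = 0.50) and Nr2c2 1454167_at at 0.31 (adjusted p = 0.55). When the mean of the subclones was instead taken in the fit of 5 line means, which leaves out the spread between clones, 1 member passed, Bcl11a 1426552_a_at (adjusted p = 0.00034; 3.54% of all tested probe sets were called).

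Over the 10 arrays, the pattern of Bcl11a 1426552_a_at was most like that of Mcl1 1448503_at and Chd4 1436343_at (Pearson's r = 0.93 each on the log2 scale), Chat 1440070_at (0.93), Phf3 1428999_at (0.93) and Birc6 1427488_a_at (0.92). These were the 5 highest values among tested probe sets of other genes, 7 values exceeded 0.9, and the median over all of them was 0.03. The arrays of a line share their culture or clone, so 10 arrays are fewer than 10 independent points. Line means of Chd4 1436343_at, which encodes the remodelling ATPase of the NuRD complex, were 79.5 in parental cells and 109, 111.4, 173.9 and 206.1 in the subclones. Those of Phf3 1428999_at were 125 in parental cells and 182.4, 218.1, 304 and 356.2 in the subclones. Both were chosen for this pattern, so their levels are a description with no test. Birc6 1427488_a_at exceeded the table median only on arrays of FBB1.10 and FBB1.11, so it entered the tested set through the lines where it was high. Over the other tested probe sets of these genes, r was 0.22 and 0.63 for Chd4, 0.02 and 0.52 for Birc6, from -0.36 to 0.50 for Phf3 and from 0.03 to 0.73 for Mcl1. The 99th percentile of r over tested probe sets of other genes was 0.73. Among the 9 regulators, taking the brightest tested probe set of each, r was 0.49 for Bcl11a, 0.32 for Klf1, 0.19 for Nr2c2, 0.12 for Dnmt1, 0.03 for Nr2c1, 0.02 for Zbtb7a, -0.18 for Ehmt2, -0.33 for Kdm1a and -0.38 for Sox6.

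Of 24 other regulators of the switch, 22 were tested by their brightest probe set. Against parental, 1 was higher and 0 lower in FBB1.5 (1.29% and 0.734% of all tested probe sets), 0 and 4 in FBB1.7 (4.55% and 5.5%), 1 and 1 in FBB1.10 (1.08% and 0.718%), and 0 and 0 in FBB1.11 (0.0758% and 0.112%), and their median log2 difference was -0.0026, -0.08, -0.05 and 0.05, beside 0.02, 0.0037, 0.02 and 0.01 over all tested probe sets. Nfia and Nfix, nuclear factor I proteins studied as regulators of fetal globin, had 480.6 and 196.5 in parental cells and 300.8 and 116.5 in FBB1.7 (limma adjusted p = 0.00091 and 0.010). Zfpm1, the cofactor FOG1 of GATA1, went from 1041 to 759.3 (adjusted p = 0.0040) and Tal1, a partner of GATA1, from 430 to 324.5 (adjusted p = 0.045) in that subclone. Nfia also fell in FBB1.10 (348.9, adjusted p = 0.037), and Atf4, the stress factor downstream of the kinase HRI, rose in FBB1.5 (1995, from 1481, adjusted p = 0.033) and FBB1.10 (1987, adjusted p = 0.040). With an array left out in turn, Nfia and Zfpm1 in FBB1.7 passed in 10 of 10 refits and Nfix in 8 of 10 (not without parental 2 or FBB1.7 1, p up to 0.11 after adjustment). Tal1 passed in 4, Nfia in FBB1.10 in 3, and Atf4 in 5 and 1 of 10 (p up to 0.30 after adjustment), and Atf4 also failed in both subclones under both other scalings. With the actin ratio as covariate, Nfia in FBB1.7 passed (adjusted p = 0.018), whereas Zfpm1, Nfix and Tal1 in FBB1.7 and Nfia in FBB1.10 did not (adjusted p = 0.13, 0.31, 0.33 and 0.16). Gata1 stood at 2251 in the parental line and 2054 to 2350 across subclones, and did not pass.

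Of 29 corepressors and chromatin partners, 27 were tested, each by its brightest probe set. Of these, 1 was called higher and 1 lower in FBB1.5, then 2 and 4 in FBB1.7, then 1 and 0 in FBB1.10, and 1 and 0 in FBB1.11. Over all tested probe sets the shares higher and lower were 1.29% and 0.734%, 4.55% and 5.5%, 1.08% and 0.718%, and 0.0758% and 0.112%. The median log2 difference of the partners was 0.01, -0.03, -0.03 and -0.04. Prmt5, an arginine methyltransferase linked to globin silencing, was called in all 4 subclones, at 1141, 774.7, 779.9 and 790.9 against 577.5 in parental cells (limma adjusted p = 4.7e-05, 0.0059, 0.021 and 0.049). In FBB1.5 it passed in 10 of 10 refits with an array left out, in FBB1.7 in 9 (not without FBB1.7 1, adjusted p = 0.079), in FBB1.10 in 8 and in FBB1.11 in 3 (p up to 0.46 after adjustment). In FBB1.7, Uhrf1, the factor that brings DNMT1 to replicating DNA, rose from 266.3 to 397.3 (adjusted p = 0.012), while Dnmt3a fell from 200.4 to 122.9 (adjusted p = 0.0033). Rcor1, the CoREST partner of KDM1A, fell there from 755.3 to 503.2 (adjusted p = 0.0011), Trim28 from 1906 to 1486 (adjusted p = 0.0032) and Mta1 of the NuRD complex from 1965 to 1504 (adjusted p = 0.0053). Dnmt3a, Rcor1 and Trim28 passed in 10 of 10 refits, Mta1 in 9 (not without FBB1.7 1) and Uhrf1 in 7 (not without parental 1 or either FBB1.7 array). With the actin ratio as covariate, Rcor1 (adjusted p = 0.031) and Prmt5 in FBB1.5 passed. Dnmt3a, Trim28, Mta1 and Uhrf1 then failed (adjusted p = 0.095, 0.086, 0.11 and 0.096), as did Prmt5 in FBB1.7, FBB1.10 and FBB1.11 (adjusted p = 0.083, 0.12 and 0.17). Without the intensity trend, Prmt5 passed in FBB1.5 and failed in FBB1.7, FBB1.10 and FBB1.11. Its call in FBB1.11 also failed with a pseudocount of 1 or 64, with median centring of the arrays and with no filter. Chd3, a NuRD ATPase, fell in FBB1.5 from 348.2 to 205.3 (adjusted p = 0.0044), and failed without FBB1.5 2 (adjusted p = 0.052). Chd4 was read here by 1451295_a_at, at 850.7 in parental cells and 922.6, 744.4, 832.1 and 901.4 in the subclones, and was not called. Its dimmer 1436343_at, at 173.9 in FBB1.10 and 206.1 in FBB1.11 against 79.5 in parental cells, is outside these counts.

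Of 13 globin genes and their chaperone, 3 were tested with a probe set of their own, Hba-a2, Hba-x and Hbb-b2. Probe sets shared by globin genes are outside these counts, and their line means were added after seeing the data, with no test given. The brightest, shared by Hba-a1 and Hba-a2, stood at 2164 in parental cells and 3145, 3887, 3008 and 2663 in the subclones. Another for these genes stood at 1168, then 1818, 2116, 1552 and 1356, and the dimmest at 28.22, then 53.15, 74.47, 47.92 and 37.03. A probe set shared by Hbb-b1, Hbb-b2, Hbb-bs and Hbb-bt stood at 920.1, then 1029, 911.3, 898.7 and 1117. Hba-a2 1427219_at, that gene's own probe set, was called in FBB1.7, at 120 against 59.7 in parental cells (limma adjusted p = 0.039). It failed without either parental array, FBB1.7 1 or either FBB1.11 array (p up to 0.31 after adjustment) and with the actin ratio as covariate (adjusted p = 0.26). It stood at 115.3 in FBB1.5 and 132.9 in FBB1.11, log2 differences of 0.79 and 0.98 beside 0.83 in FBB1.7, which did not pass (adjusted p = 0.11 each), and at 65.8 in FBB1.10. The early globins Hbb-y and Hbb-bh1, which BCL11A represses in adult mouse red cells, were not tested, and the highest line mean among their 6 probe sets was 15.39, below the table median.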

How the data were processed

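Total RNA of MEL cells was read on 10 Affymetrix Mouse Genome 430 2.0 arrays, from cDNA primed with oligo-dT, per the labels' protocols. The deposited values are linear intensities per probe set. The sources used here do not give how the authors summarised probes, corrected background or scaled the arrays. Samples were grouped by their titles. No identical arrays were found.

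After 64 control probe sets were left out, log2(intensity + 16) was fitted in limma 3.58.1 (R 4.3.3, eBayes with intensity trend) as 5 line means, with no further normalization. Adjusted p-values are Benjamini-Hochberg values over 25061 probe sets, and 0.05 was the threshold. Tagged arrays against parental used duplicateCorrelation. Unequal probe sets were tested with diffSplice. The functions were tested on simulated data. Arrays give no depth, and their number, 2 per line, limits the precision.

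All 33 member probe sets had a symbol in RefSeq (GRCm38.p6), which also gave the promoter sequences. Every member probe set is named, with up to 4 called genes of smallest p per other list and comparison (Uhrf1, and Prmt5 in FBB1.7, lie outside that and were named after their values were seen) and the 5 probe sets most like Bcl11a 1426552_a_at, its probe set with the smallest F test p. The members and lists were chosen with earlier results of these data known. Alternatives covered the pseudocount, the scaling, the filter, the variance prior, the block and each array left out. Leaving out both arrays of highest actin ratio, and this ratio as a covariate, were added after seeing the data.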

Additional observations from a re-analysis of the deposited data

Results flagged for a closer look

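Of the differences from parental, 5 were unequal between the 4 subclones by the moderated F test of limma. Bcl11a 1426552_a_at (adjusted p = 0.00024) was higher in FBB1.10 and FBB1.11, at 198.6 and 213, than in FBB1.5 and FBB1.7, at 79.0 and 63.7. Bcl11a 1419406_a_at (adjusted p = 0.0061) was lowest in FBB1.7, at 232.6 against 298.3 to 377 in the other subclones. The Dnmt1 probe sets 1422946_a_at, 1447877_x_at and 1435122_x_at (adjusted p = 0.025, 0.041 and 0.042) were highest in FBB1.7, at 2446, 391.6 and 933.8.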

How the results depend on the processing

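Of 1265 recomputed values of single probe sets, 1021 kept their direction and their side of the threshold, 218 lost a call, 26 gained it and none changed sign. Values of the F test hold no direction, so they could not change sign. Those of diffSplice could not change with no intensity trend or with a robust variance prior. Of 150 recomputed counts, 119 stayed within 1.5 times the main value and 31 did not. In FBB1.5 the count of 1 went to 0 with a pseudocount of 64, with no filter, with no intensity trend and with the actin ratio as covariate. In FBB1.7 the 5 calls became 0 with no intensity trend and 2 with the actin ratio as covariate, where the calls over all tested probe sets went from 2519 to 859. In FBB1.10 the 1 call became 2 with the filter on all arrays and 0 with no intensity trend, where Bcl11a 1426552_a_at had an adjusted p of 0.053 (limma). The 5 calls of the F test became 2 with no filter and 1 with no intensity trend. For tagged arrays against parental, 0 became 1 in the fit of 5 line means. The 3 called Bcl11a disagreements became 5 with the filter on all arrays and 5 over probe sets of mean intensity above 100 alone; fewer probe sets are tested under both, and the cause was otherwise not tested. With an array left out in turn, counts ranged from 0 to 1 in FBB1.5, 1 to 7 in FBB1.7, 1 to 3 in FBB1.10, 1 to 1 in FBB1.11, 1 to 7 for the F test, 0 to 0 for tagged arrays and 2 to 5 for the disagreements. Replicate numbers did not pair the arrays (r of deviations from -0.16 to 0.18, with 1 of 10 line pairs above 0.1), and with the replicate block the counts were 1, 5, 1, 1, 5, 0 and 3, as without it, though Sox6 1447655_x_at then lost its call between FBB1.7 and FBB1.5. The 6 untested probe sets lay near or below the table median, where array signal limits what can be read.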
